A study of Mus musculus with 9 samples.

Results

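The actin cytoskeleton genes of the smooth muscle type were followed in NMuMG cells, an immortalized mouse mammary gland epithelial line, by RNA-Seq. The 10 genes were taken by symbol from the 52459 gene symbols in the deposited transcript tables: *Acta2*, *Actg2*, *Tagln*, *Cnn1*, *Cnn2*, *Myl9*, *Tpm1*, *Tpm2*, *Cald1* and *Fhl1*. There were 3 libraries of mock cells, which carry the empty vector, 3 of cells overexpressing EPR (the lncRNA BC030870, which also encodes a small peptide) and 3 of cells overexpressing EPRSTOPE, the same RNA with a stop codon in place of the second codon of its open reading frame. All 3 populations were stably transfected with a pBICEP-based vector and kept as G418-selected pools, and no time course or TGF-β treatment was part of these libraries. The paper's methods call the libraries biological triplicates of each condition, and the labels do not say whether these came from separate pools, so the p-values measure the spread between these libraries only. The libraries are named below by the numbers in their titles, 203 to 205 for mock, 206 to 208 for EPR and 209 to 211 for EPRSTOPE.

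Smooth muscle cells contract by sliding actin over myosin II, whose activity follows phosphorylation of its regulatory light chain. Actin filaments are decorated by tropomyosin, caldesmon, calponin and transgelin, which control how myosin and other proteins reach the filament. Many of these genes are driven by serum response factor (SRF) bound to a short promoter element, the CArG box, together with the coactivators myocardin, MRTF-A and MRTF-B. Several of them are also used outside muscle, in stress fibers of fibroblasts and epithelial cells, and a rise in *Acta2* and *Tagln* is commonly read as a marker of the epithelial-mesenchymal transition.

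The libraries held 5972457 to 11876435 estimated counts. Values are given as counts per 1000000 counts (CPM) normalized by edgeR's TMM method, and 3 counts, the smallest level read here as detected, correspond to 0.253 to 0.502 CPM depending on the library. The overexpressed RNA was read at 0, 0 and 2 counts in mock cells. EPR cells had 271, 214 and 256 counts and EPRSTOPE cells 28, 39 and 33 counts. The mock libraries were thus separated from the overexpressing ones, and the EPRSTOPE cells held less of the RNA than the EPR cells. Such counts do not show the changed codon, so they cannot tell EPR from EPRSTOPE RNA. A gene was tested if it had at least 1 CPM in at least 3 libraries (15370 genes) and was called changed where edgeR's quasi-likelihood test, adjusted after Benjamini and Hochberg over all tested genes, gave a p under 0.01 and the log2 fold change lay beyond 0.5. By these criteria 28.1% of all tested genes were called in EPR against mock, 28.0% in EPRSTOPE against mock and 13.2% in EPR against EPRSTOPE. The EPR and EPRSTOPE comparisons share the 3 mock libraries.

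Promoter sequences of 8 of the 10 genes were found in the RefSeq table used here (GRCm38.p6, 250 bases before to 50 bases after each start site, 10 windows in all). For each gene in the table that was called against mock 1 window is shown, and for *Cald1* both, on the coding strand, 5′ to 3′, and they show which of these promoters carry the letters recognized by SRF. Capitals mark a CArG box (CC, then 6 bases of A or T, then GG, with 1 other base allowed within the 6) or CATTCC, the core of the element bound by TEAD factors, on either strand (GGAATG when it lies on the other strand).
Acta2, chr19:34255324-34255623, minus strand: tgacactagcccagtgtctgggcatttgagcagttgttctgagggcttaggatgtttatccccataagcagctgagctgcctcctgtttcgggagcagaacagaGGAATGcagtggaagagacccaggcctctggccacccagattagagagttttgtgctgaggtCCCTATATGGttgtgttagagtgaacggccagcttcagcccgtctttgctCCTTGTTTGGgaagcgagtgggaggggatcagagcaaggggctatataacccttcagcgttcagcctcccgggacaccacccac
Cnn2, chr10:79988350-79988649, plus strand: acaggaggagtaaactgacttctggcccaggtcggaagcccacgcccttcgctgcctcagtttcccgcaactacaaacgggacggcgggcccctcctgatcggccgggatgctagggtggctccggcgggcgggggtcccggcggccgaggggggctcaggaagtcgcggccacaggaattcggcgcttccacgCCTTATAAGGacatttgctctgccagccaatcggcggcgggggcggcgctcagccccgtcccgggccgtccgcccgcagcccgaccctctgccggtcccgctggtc
Fhl1, chrX:56779433-56779732, plus strand: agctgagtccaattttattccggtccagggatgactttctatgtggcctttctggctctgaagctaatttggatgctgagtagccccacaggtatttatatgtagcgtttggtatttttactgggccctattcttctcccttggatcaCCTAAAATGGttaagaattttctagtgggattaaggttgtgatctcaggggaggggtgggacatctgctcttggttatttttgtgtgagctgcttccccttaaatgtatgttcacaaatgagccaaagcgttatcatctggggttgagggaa
Tpm1, chr9:67049164-67049463, minus strand: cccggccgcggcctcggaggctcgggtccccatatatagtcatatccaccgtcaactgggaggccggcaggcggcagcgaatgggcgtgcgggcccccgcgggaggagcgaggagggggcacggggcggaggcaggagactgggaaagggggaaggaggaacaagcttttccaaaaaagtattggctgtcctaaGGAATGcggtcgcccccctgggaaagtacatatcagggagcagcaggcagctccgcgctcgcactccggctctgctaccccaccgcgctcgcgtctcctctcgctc
Cald1, upstream start, chr6:34598254-34598553, plus strand: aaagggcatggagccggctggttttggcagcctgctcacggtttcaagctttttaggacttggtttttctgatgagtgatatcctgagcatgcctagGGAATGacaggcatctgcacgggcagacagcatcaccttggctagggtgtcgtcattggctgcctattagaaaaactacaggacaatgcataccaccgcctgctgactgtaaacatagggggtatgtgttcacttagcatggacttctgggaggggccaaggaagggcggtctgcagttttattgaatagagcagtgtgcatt
Cald1, downstream start, chr6:34709194-34709493, plus strand: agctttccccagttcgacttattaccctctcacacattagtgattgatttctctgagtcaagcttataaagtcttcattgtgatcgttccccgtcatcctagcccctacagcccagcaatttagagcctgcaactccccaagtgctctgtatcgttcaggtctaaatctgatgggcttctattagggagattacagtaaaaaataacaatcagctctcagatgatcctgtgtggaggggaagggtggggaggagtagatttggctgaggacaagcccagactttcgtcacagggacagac

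The *Acta2* window held the CArG-like runs CCCTATATGG and CCTTGTTTGG, each with 1 base other than A or T in its core, with their first bases at -84 and -34 from the RefSeq start site, and GGAATG at -146. The RefSeq start of *Acta2* lies 217 bases downstream of the Gencode start. The *Cnn2* window held CCTTATAAGG at -56, and the *Fhl1* window held CCTAAAATGG at -102. A CArG box without a mismatch stood in the windows of *Cnn2*, *Fhl1* and *Myl9*, against 1.63% of all 32851 promoter windows of the table, and one with at most 1 mismatch stood in 4 of the 10 windows, against 9.98% of all windows. The upstream *Cald1* window and those of *Acta2* and *Tpm1* held CATTCC or its complement, as did 14.7% of all windows, and the downstream *Cald1* window held neither motif. These matches describe letters in a window and no binding was measured.

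Of the 10 genes, 6 passed the filter on low counts, namely *Acta2*, *Tagln*, *Cnn2*, *Tpm1*, *Cald1* and *Fhl1*. The other 4 (*Actg2*, *Cnn1*, *Myl9* and *Tpm2*) did not and have no test. In EPR against mock, *Acta2*, *Tagln* and *Tpm1* were called lower and *Fhl1* higher, while *Cnn2* and *Cald1* were not called. In EPRSTOPE against mock, *Acta2*, *Tagln*, *Tpm1* and *Cnn2* were called lower and *Fhl1* higher, while *Cald1* was not called. Over all tested genes, 12.9% were called lower and 15.2% higher in EPR, and 12.4% lower and 15.6% higher in EPRSTOPE. In EPR against EPRSTOPE only *Cnn2* (higher in EPR) and *Fhl1* (lower in EPR) were called among the 6, against 6.86% higher and 6.35% lower of all genes. The median log2 fold change of the 6 tested genes was -0.51 in EPR against mock and -1.05 in EPRSTOPE against mock, beside -0.01 and -0.04 over all tested genes. *Tagln* passed the filter only through its mock level, and a gene that passes in this way is bound to differ, so these counts and medians are a description only. In bulk RNA, fewer cells with a transcript and less of it per cell cannot be told apart.

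**Figure D1:**
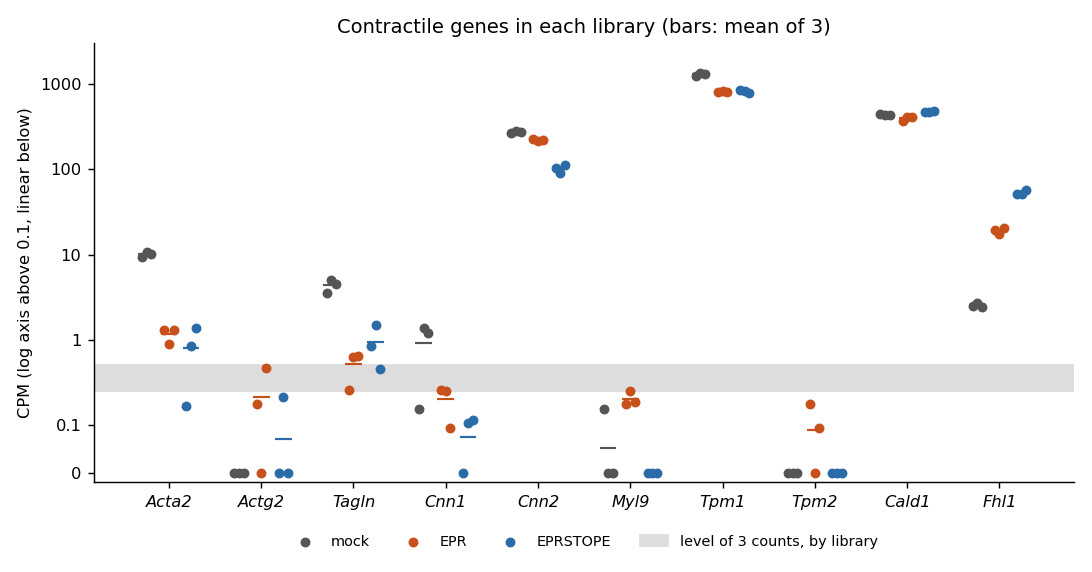
CPM of the 10 genes in each of the 9 libraries (points) with the mean of each condition (bars), on an axis that is logarithmic above 0.1 CPM and linear below, and the level of 3 counts as a gray band. *Acta2* and *Tagln* are highest in the 3 mock libraries, *Fhl1* is lowest there, and *Actg2*, *Myl9* and *Tpm2* stay within or under the band in every library.

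*Acta2* (ENSMUSG00000035783.8, chr19:34241090-34255590 of GRCm38) encodes smooth muscle α-actin. It measured 9.32, 10.7 and 10.3 CPM in mock libraries 203, 204 and 205, against 1.31, 0.884 and 1.31 CPM in EPR libraries 206, 207 and 208. The EPRSTOPE libraries 209, 210 and 211 gave 0.169, 0.854 and 1.38 CPM. All mock libraries were above all others, and the EPR and EPRSTOPE libraries overlapped. The log2 fold change was -3.08 (standard error 0.36, edgeR adjusted p = 2.1e-05) in EPR and -3.54 (standard error 0.39, edgeR adjusted p = 1.2e-05) in EPRSTOPE. The difference between EPR and EPRSTOPE was 0.46 on the log2 scale with a 95% interval from -0.54 to 1.46, which the depth of 1 to 15 counts per library does not narrow further. Its single transcript in the files, Acta2-201, encodes 377 residues and holds the same counts. In edgeR's test over 45412 transcripts, which estimates a larger spread between libraries, Acta2-201 was not called in EPR against mock (edgeR adjusted p = 0.02). In EPRSTOPE against mock it was called lower there (edgeR adjusted p = 0.0099).

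*Tagln* (ENSMUSG00000032085.5, chr9:45929619-45936058) encodes transgelin, also called SM22α, an actin-bundling protein. The mock libraries gave 3.57, 5.07 and 4.48 CPM, the EPR libraries 0.262, 0.631 and 0.654 CPM and the EPRSTOPE libraries 0.847, 1.495 and 0.460 CPM. Again every mock library lay above every library of overexpressing cells. The log2 fold change was -3.09 (standard error 0.46) in EPR and -2.20 (standard error 0.44) in EPRSTOPE, given without a p because *Tagln* entered the test only through its mock level. EPR and EPRSTOPE differed by -0.89 with a 95% interval from -2.06 to 0.28, and their libraries overlapped.

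*Cnn1*, *Actg2*, *Myl9* and *Tpm2* are the remaining genes most tied to differentiated smooth muscle. *Cnn1* (ENSMUSG00000001349.5, chr9:22099216-22109630), which encodes calponin-1, an actin-binding inhibitor of myosin ATPase, was read at 1, 13 and 15 counts in the mock libraries, at 3, 2 and 1 counts in the EPR libraries and at 0, 1 and 1 counts in the EPRSTOPE libraries. Mock libraries 204 and 205 were thus above the 3-count level while mock library 203, the one with the lowest total, was not. With no filter on low counts, *Cnn1* reached an edgeR adjusted p of 0.0063 for EPRSTOPE against mock and 0.051 for EPR against mock. *Actg2* (ENSMUSG00000059430.14, chr6:83512905-83536265), the γ-actin of enteric smooth muscle, had no count in mock cells, 2, 0 and 5 counts in EPR cells and 0, 2 and 0 counts in EPRSTOPE cells. *Myl9* (ENSMUSG00000067818.6, chr2:156775420-156781658), the regulatory light chain of smooth muscle myosin II, had 1, 0 and 0 counts in mock cells, 2 in each EPR library and none in EPRSTOPE cells. *Tpm2* (ENSMUSG00000028464.16, chr4:43514711-43523765), β-tropomyosin, had no count in mock or EPRSTOPE cells and 2, 0 and 1 counts in EPR cells. At this depth no difference in *Actg2*, *Myl9* or *Tpm2* was detectable, and these values do not show that the genes are silent.

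*Tpm1* (ENSMUSG00000032366.15, chr9:67022590-67049406) encodes α-tropomyosin, in long muscle-type and short forms that differ in their first exons. It was the most abundant of the 10 genes, with 1236, 1351 and 1319 CPM in mock, 799, 820 and 806 CPM in EPR and 850, 835 and 790 CPM in EPRSTOPE libraries. The mock libraries did not overlap the others. The log2 fold change was -0.69 (standard error 0.05, edgeR adjusted p = 2.8e-07) in EPR and -0.66 (standard error 0.05, edgeR adjusted p = 3.6e-07) in EPRSTOPE. EPR and EPRSTOPE differed by -0.03 with a 95% interval from -0.14 to 0.08, and their libraries overlapped.

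*Cnn2* (ENSMUSG00000004665.10, chr10:79988584-79996062), the calponin found in many non-muscle cells, separated the EPR from the EPRSTOPE cells. The mock libraries gave 268.7, 285.0 and 276.4 CPM, the EPR libraries 226.7, 217.2 and 219.6 CPM, and the EPRSTOPE libraries 102.7, 89.6 and 111.6 CPM. No 2 conditions overlapped. In EPR against mock the log2 fold change of -0.32 (standard error 0.07, edgeR adjusted p = 0.0029) lay inside the cut-off of 0.5, whereas in EPRSTOPE against mock it was -1.45 (standard error 0.08, edgeR adjusted p = 1.5e-08). The direct test gave 1.13 for EPR against EPRSTOPE, with a 95% interval from 0.96 to 1.29 (edgeR adjusted p = 5.1e-07). The 2 *Cnn2* transcripts in the files share a start. Cnn2-201 (305 residues) and Cnn2-202 (266 residues) were both called lower in EPRSTOPE against mock, with log2 fold changes of -1.30 and -1.80 in edgeR's test over 45412 transcripts.

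*Cald1* (ENSMUSG00000029761.16, chr6:34598500-34775473) encodes caldesmon, which binds actin, myosin and tropomyosin. Summed over its transcripts it was not called in any comparison. The mock libraries gave 446.5, 431.7 and 428.7 CPM, the EPR libraries 369.6, 413.9 and 414.3 CPM, and the EPRSTOPE libraries 476.7, 470.6 and 476.9 CPM. The 3 conditions did not overlap, with EPR lowest and EPRSTOPE highest, and the differences were small. The log2 fold change was -0.13 (95% interval -0.25 to -0.01, edgeR adjusted p = 0.079) in EPR, 0.12 (95% interval 0.00 to 0.24, edgeR adjusted p = 0.083) in EPRSTOPE and -0.25 (95% interval -0.37 to -0.13, edgeR adjusted p = 0.0047) for EPR against EPRSTOPE.

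*Fhl1* (ENSMUSG00000023092.16, chrX:56731787-56793346) encodes a protein of LIM domains found in striated and smooth muscle and was the only 1 of the 6 tested genes called higher. It measured 2.49, 2.74 and 2.44 CPM in mock libraries, 19.2, 17.6 and 20.8 CPM in EPR libraries and 51.0, 50.7 and 57.7 CPM in EPRSTOPE libraries. The order mock, EPR, EPRSTOPE held without overlap. The log2 fold change was 2.90 (standard error 0.13, edgeR adjusted p = 4.5e-09) in EPR, 4.37 (standard error 0.12, edgeR adjusted p = 8.7e-11) in EPRSTOPE, and -1.47 with a 95% interval from -1.68 to -1.26 (edgeR adjusted p = 4.7e-07) for EPR against EPRSTOPE.

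**Figure D2:**
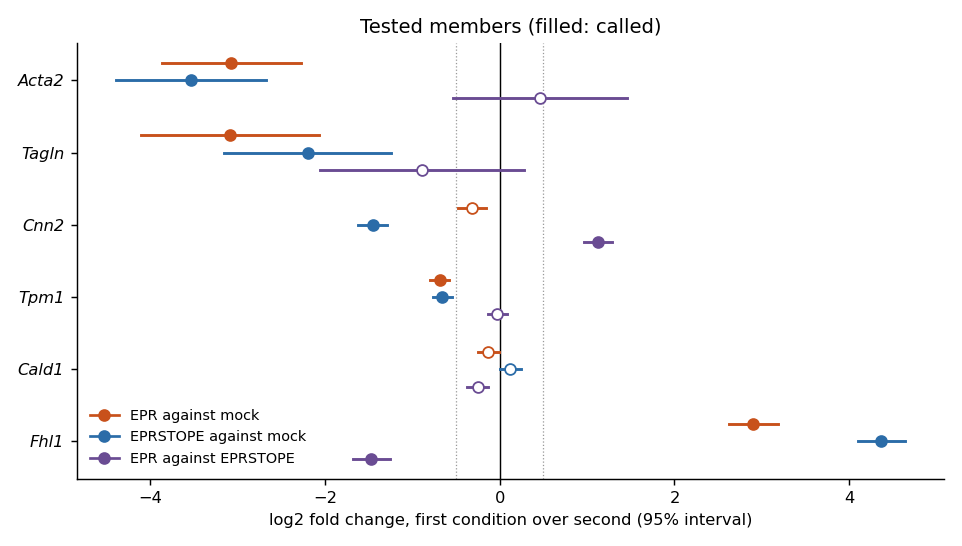
Log2 fold change of the 6 tested genes (points) with 95% intervals (lines) in the 3 comparisons, filled where called, with dotted lines at the cut-off of 0.5 on either side of 0. The intervals of *Acta2* and *Tagln* are the widest, and *Cnn2* and *Fhl1* are the genes called between EPR and EPRSTOPE.

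In an exact two-sided permutation test, the smallest p that 3 libraries against 3 can give is 0.1, and all comparisons without overlap named above reached it.

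Levels of different genes were compared as TPM, which is scaled by transcript length. In mock cells the order was *Tpm1* (1181 ± 43.6 TPM, SD, n = 3), *Cald1* (264 ± 28.6), *Cnn2* (174 ± 15.2), *Tagln* (5.93 ± 2.27), *Acta2* (5.36 ± 0.80), *Fhl1* (2.21 ± 0.62) and *Cnn1* (0.90 ± 0.39). *Tagln* and *Acta2* were not separated by more than their spread. Of the mock *Tagln* TPM, 54.1% came from Tagln-202, a transcript of 369 bases with 16.7 estimated counts over the mock libraries. Tagln-201 (201 residues) was at 1.88 ± 0.58 TPM. Of the mock *Cnn1* TPM, 35.3% came from Cnn1-202, a transcript of 370 bases with 1.73 estimated counts. The places of *Tagln* and *Cnn1* in this order are therefore uncertain. In EPR cells *Tpm1* (533 ± 50.8 TPM), *Cald1* (185 ± 10.8) and *Cnn2* (117 ± 8.2) kept the top of the order and *Fhl1* (10.2 ± 1.8) came next, above *Acta2* (0.60 ± 0.10) and *Tagln* (0.33 ± 0.06). In EPRSTOPE cells *Fhl1* reached 31.9 ± 2.9 TPM, next to *Cnn2* at 55.8 ± 8.6 TPM. The muscle actin *Acta2* was a small part of the actin mRNA even in mock cells, where the cytoplasmic actins *Actb* and *Actg1* stood at 4889 ± 291 and 1979 ± 161 TPM. The coding sequences of the muscle actins are nearly identical, and reads they share are divided between them by an estimate. The skeletal muscle actin *Acta1* was on average at 0.08 CPM in mock cells, 0.55 CPM with EPR and 0.07 CPM with EPRSTOPE, and the cardiac actin *Actc1* had no count in any library. With *Acta2*, *Actg2*, *Acta1* and *Actc1* summed into 1 gene the sum was still called lower in both comparisons against mock, as the closing part gives.

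The 76 transcripts of the 10 genes were matched to Gencode M21 by identifier, and transcripts whose first bases lie within 1000 bases of each other were summed by start. This summing was chosen after the transcript values had been seen and is given as a description without a fitted test. Estimated counts of transcripts that share exons are uncertain, and for *Tpm1* they varied widely between libraries of 1 condition.

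For *Cald1* the nearly level total hid starts that moved in opposite directions. Transcripts from the upstream start, whose promoter is the first of the *Cald1* windows shown above, measured 162.9, 182.0 and 200.2 CPM in mock, 96.6, 109.7 and 85.4 CPM in EPR and 118.2, 79.0 and 90.9 CPM in EPRSTOPE libraries. Every mock library was higher than every other library, and the EPR and EPRSTOPE libraries overlapped. Transcripts from the downstream start, which include Cald1-201 (554 residues) and Cald1-203 (530 residues), measured 220.6, 201.9 and 177.0 CPM in mock, 227.8, 260.5 and 281.1 CPM in EPR and 327.7, 337.8 and 336.8 CPM in EPRSTOPE libraries. Here the mock libraries were lowest and the EPRSTOPE libraries highest, and no 2 conditions overlapped. The downstream start thus held 45.9% of the *Cald1* counts of mock cells, against 64.2% with EPR and 70.4% with EPRSTOPE. Among single transcripts of *Cald1*, Cald1-203 was called higher in EPRSTOPE against mock (log2 fold change 1.25, edgeR adjusted p = 0.0068). Its value in EPR against mock was 0.80 (edgeR adjusted p = 0.048), which did not pass. Cald1-201, of the same start, was not called, with log2 fold changes of -0.09 in EPR and 0.22 in EPRSTOPE. The rise of the downstream start thus lay mostly in Cald1-203, estimated at 17.7, 31.5 and 44.5 TPM in mock, EPR and EPRSTOPE cells.

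For *Fhl1* the counts added in the overexpressing cells lay mostly at 1 start. The transcripts of the second start, for which the *Fhl1* promoter is shown above, measured 1.28, 0.329 and 0.104 CPM in mock, 14.6, 14.3 and 14.8 CPM in EPR and 38.6, 40.9 and 38.2 CPM in EPRSTOPE libraries. The first start, farther upstream, measured 0.757, 2.06 and 1.73 CPM in mock, 1.70, 2.25 and 2.62 CPM in EPR and 1.29, 5.97 and 7.32 CPM in EPRSTOPE libraries, and its mock libraries overlapped both other conditions. The second start held 22.3% of the *Fhl1* counts of mock cells, against 75.9% with EPR and 73.8% with EPRSTOPE. The mock share pools few counts that differed between libraries. This start was near the 3-count level in mock library 204 and under it in mock library 205. Its main transcript, Fhl1-204 (296 residues), had 1.28 estimated counts over the 3 mock libraries together, 420.7 over the EPR libraries and 917.0 over the EPRSTOPE libraries. No fold or p is given for it, because the mock count is under the 3-count level and the transcript entered the test only through the cells where it is high.

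For *Tpm1* the first start, which gives the long forms, measured 616.1, 1010 and 901.5 CPM in mock, 468.0, 489.8 and 509.5 CPM in EPR and 514.9, 482.9 and 293.8 CPM in EPRSTOPE libraries. The second start, which gives short forms, measured 598.5, 319.2 and 398.7 CPM in mock, 315.8, 309.9 and 275.3 CPM in EPR and 324.4, 335.1 and 483.8 CPM in EPRSTOPE libraries. The first start was higher in each mock library than in any other library, and the second overlapped between mock and EPRSTOPE. Of the *Tpm1* transcripts with at least 10% of its TPM in a condition, Tpm1-207 (287 residues) was called lower in EPRSTOPE against mock (log2 fold change -1.66, edgeR adjusted p = 0.0082). The complete forms Tpm1-211 (248 residues) and Tpm1-213 (284 residues) were not called, with log2 fold changes of 0.07 and 0.14 in EPR and 0.15 and -0.04 in EPRSTOPE. The short noncoding transcript Tpm1-219 ranged from 145.2 to 498.1 TPM among the mock libraries alone, so the part of each transcript in the fall of *Tpm1* was not resolved. In all, 42 of the 76 transcripts passed the filter. In edgeR's test over all transcripts, 1 was called in EPR (Fhl1-204), 6 in EPRSTOPE (Fhl1-204 among them) and 1 between EPR and EPRSTOPE. Over all tested transcripts the shares were 4.07%, 4.64% and 0.854%. Fhl1-204 entered the test only through the cells where it is high and was bound to differ, so these counts are a description only.

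**Figure D3:**
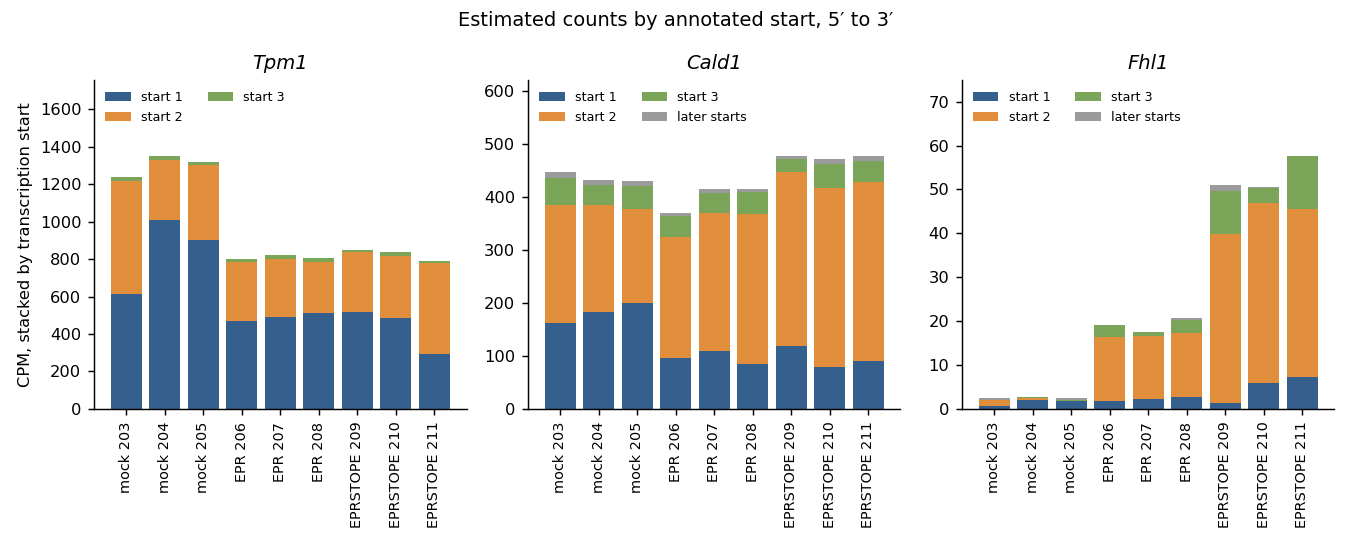
CPM of *Tpm1*, *Cald1* and *Fhl1* in each library, stacked by annotated start from the most upstream (start 1) on. In *Cald1* start 1 shrinks and start 2 grows from mock to the overexpressing cells, and in *Fhl1* start 2 holds 14.3 to 14.8 CPM in the EPR libraries and 38.2 to 40.9 CPM in the EPRSTOPE libraries.

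*Acta2* lies on chromosome 19, so its neighbors were read as well. The 52 tested genes within 5 Mb of *Acta2* had log2 fold changes with a median of -0.44 in EPRSTOPE against mock and -0.01 in EPR against mock, and the 470 tested genes of the chromosome other than *Acta2*, these 52 included, had medians of -0.55 and -0.02. The *Acta2* change of -3.54 in EPRSTOPE stands beside this shift, and the change of -3.08 in EPR stands beside a neighbor median of -0.01. In EPR against EPRSTOPE the medians were 0.55 for the 52 neighbors and 0.55 for the chromosome, beside the *Acta2* difference of 0.46. For the neighbors of the other 9 genes, the medians lay between -0.22 and 0.19 in all comparisons.

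**Figure D4:**
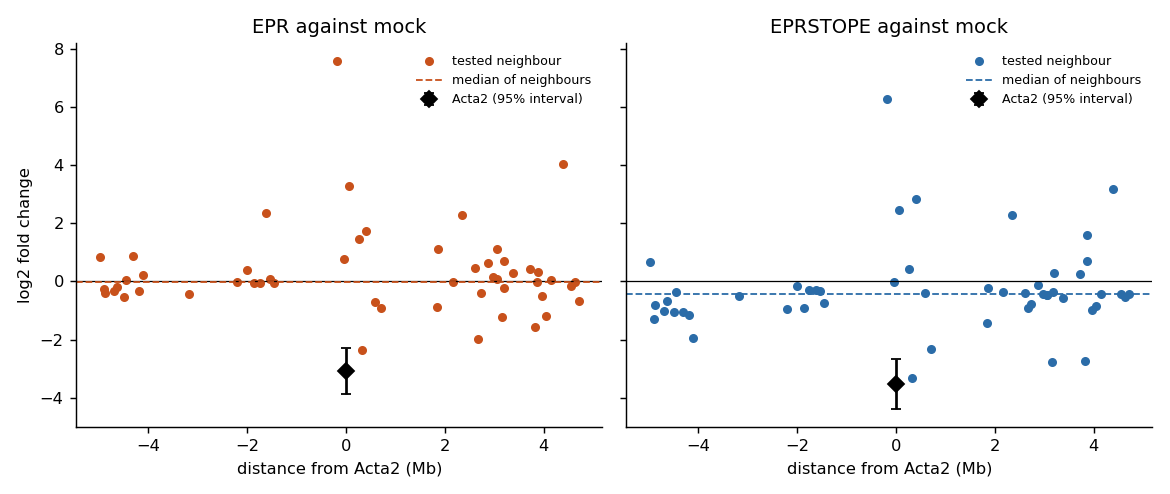
Log2 fold change of the 52 tested genes within 5 Mb of *Acta2* against their distance from it in Mb, in EPR against mock (left) and EPRSTOPE against mock (right), with the median as a dashed line and *Acta2* as a diamond with its 95% interval. The median is -0.01 on the left and -0.44 on the right, and *Acta2* lies at -3.08 and -3.54.

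The genes most like *Acta2* over the 9 libraries, by Pearson's r of log2(CPM + 0.5), were *Amotl1* (r = 0.994), *Chrna1* (r = 0.993) and *Rnf26* (r = 0.990). Those most like *Tagln* were *Lsm5* (r = 0.989), *9430015G10Rik* (r = 0.987) and *Socs7* (r = 0.986). All 9 libraries fall into the same 3 conditions, and 839 and 610 tested genes had r above 0.9 with *Acta2* and *Tagln*. For *Cnn1* (*Psmc2*, *Rps29* and *Myl12a*, r of 0.951, 0.949 and 0.942) and *Myl9* (*Rhod*, *Golph3l* and *Stk16*, r of 0.963, 0.961 and 0.954) the counts were too few for the order to be read.

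Of 19 other markers of smooth muscle, 8 passed the filter. The smooth muscle myosin heavy chain *Myh11* had 10, 3 and 2 counts over the mock, EPR and EPRSTOPE libraries, desmin (*Des*) had 0, 9 and 3 counts, and the actin nucleator *Lmod1* had 19, 16 and 4 counts. With these defining markers at a low level or under the filter, the 10 genes are described here as actin cytoskeleton genes and not as markers of smooth muscle cells. Of the 8 tested, 1 was called higher and 2 lower in EPR against mock, and 1 higher and 3 lower in EPRSTOPE against mock. Their median log2 fold changes were -0.20 and -0.65. Over all tested genes, 15.2% were called higher and 12.9% lower in EPR, and 15.6% and 12.4% in EPRSTOPE. *Csrp2*, a LIM protein of smooth muscle, stood at 21.8 ± 2.0 CPM (SD, n = 3) in mock and fell to 3.55 ± 0.99 CPM with EPR and 4.72 ± 0.32 CPM with EPRSTOPE. *Smtn*, encoding smoothelin, fell from 56.9 to 38.7 and 32.9 CPM. *Vcl*, encoding the adhesion protein vinculin, rose from 398 ± 9.7 CPM to 884 ± 33.6 and 718 ± 45.8 CPM. *Csrp1* fell in EPRSTOPE (log2 fold change -0.77) and stood at 0.33 in EPR, below the cut-off. *Csrp1* and *Pdlim7* were called higher in EPR than in EPRSTOPE, by 1.10 and 0.68 on the log2 scale.

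Among the paralogs of the 10 genes, 6 of 8 were tested. Against mock none was called higher, 1 was called lower in EPR and 3 in EPRSTOPE, with medians of -0.24 and -0.48. Of all tested genes, 12.9% were called lower in EPR and 12.4% in EPRSTOPE. *Fhl2* was called higher in EPR than in EPRSTOPE, by 0.60 on the log2 scale. *Tagln2*, the transgelin of non-muscle cells, stood at 312 ± 15.0 CPM in mock and fell to 191 ± 8.8 with EPR and 207 ± 6.8 with EPRSTOPE. *Tpm4* and *Fhl3* fell in EPRSTOPE cells, with log2 fold changes of -0.51 and -0.63, and were at -0.31 and -0.48 in EPR, short of the cut-off. Neither *Actb* nor *Actg1* was called in any comparison. *Actb* stood at -0.12 and -0.20 against mock in EPR and EPRSTOPE, and *Actg1* at 0.25 and -0.20.

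Of 14 genes of myosin II and its control, 3 were called higher and 1 lower in EPR. In EPRSTOPE 2 were higher and 2 lower, and the medians were 0.09 and -0.18. Of all tested genes, 28.1% and 28.0% were called in either direction, which is near the share of this list. *Myh14* is among the genes called higher in both comparisons. It entered the test only through the overexpressing cells and was bound to differ, so these counts and medians are a description only. The myosin light chain kinase gene *Mylk*, whose product phosphorylates the regulatory light chain, measured 6.68, 8.86 and 7.98 CPM in mock, 57.4, 61.9 and 65.3 CPM in EPR and 39.0, 38.6 and 36.8 CPM in EPRSTOPE libraries. It rose by 2.96 (standard error 0.10) and 2.26 (standard error 0.11) on the log2 scale and was higher in EPR than in EPRSTOPE by 0.69. The non-muscle myosin II heavy chains moved apart. *Myh10*, the heavy chain of myosin IIB, stood at 193 ± 6.8 CPM in mock and fell to 42.9 ± 0.9 with EPR and 46.9 ± 2.3 with EPRSTOPE, whereas *Myh14*, that of myosin IIC, went from 0.17 ± 0.13 CPM, under the 3-count level and the filter, to 6.98 ± 0.61 and 5.72 ± 0.42 CPM. *Myl12b*, the regulatory light chain of non-muscle cells, rose in EPR (log2 fold change 0.73) and stood at -0.22 in EPRSTOPE. *Ppp1r12b*, a regulatory subunit of myosin phosphatase, fell in EPRSTOPE (log2 fold change -0.88) and stood at 0.09 in EPR.

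Of the regulators of smooth muscle genes, 8 of 10 were tested. In EPR 2 were called higher and 1 lower, and in EPRSTOPE 2 higher and 3 lower, with medians of -0.01 and -0.41. Shares over all tested genes were 15.2% higher and 12.9% lower in EPR, and 15.6% and 12.4% in EPRSTOPE. Myocardin (*Myocd*), the coactivator of SRF in smooth muscle, had 5, 3 and 1 counts over the mock, EPR and EPRSTOPE libraries, and the kinase gene *Prkg1* had 3, 0 and 0. *Srf* itself measured 91.4 ± 0.5 CPM in mock and 89.2 ± 10.6 in EPR, and fell to 53.7 ± 4.2 CPM in EPRSTOPE cells (log2 fold change -0.76, edgeR adjusted p = 1.9e-05). Its level was called higher in EPR than in EPRSTOPE by 0.73. *Mkl1*, which encodes MRTF-A, rose in EPR and EPRSTOPE, by 0.74 and 0.82 on the log2 scale, and *Mkl2*, encoding MRTF-B, was not called, at 0.12 and -0.22. *Klf4*, a repressor of smooth muscle genes, stood at 42.4 ± 2.1 CPM in mock and rose to 77.2 ± 5.0 with EPR and 106 ± 3.0 with EPRSTOPE. *Tead1*, a factor that binds CATTCC, fell from 96.6 ± 4.5 CPM to 55.8 ± 5.0 and 58.4 ± 7.9 CPM. *Gata6* fell in EPRSTOPE by 1.09 on the log2 scale and stood at 0.03 in EPR. *Elk1*, a cofactor that competes with myocardin for SRF, and *Foxo4* were not called, with log2 fold changes of -0.34 and -0.07 in EPR and -0.47 and -0.36 in EPRSTOPE.

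**Figure D5:**
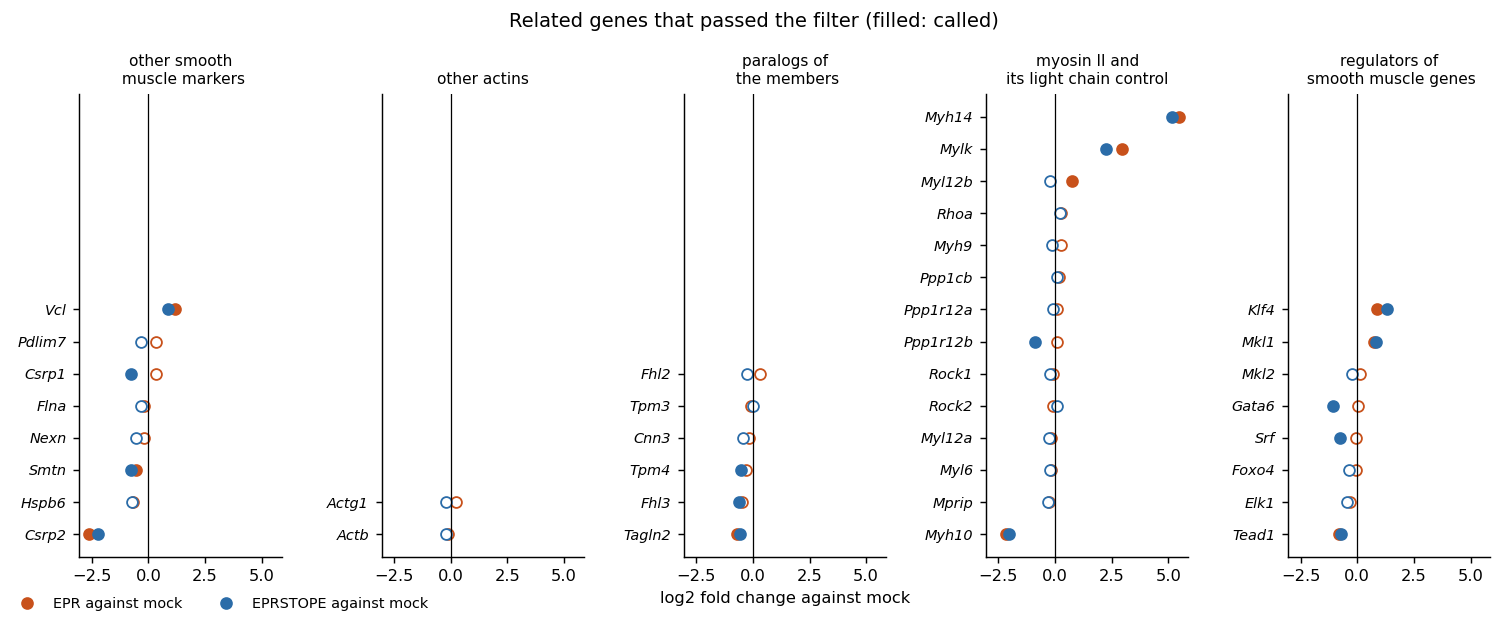
Log2 fold change against mock of the related genes that passed the filter, by list, in EPR (orange) and EPRSTOPE (blue), filled where called. *Myh14* lies farthest to the right, but its mock level is under the 3-count level. It passed the filter only through the overexpressing cells, so its fold is not given. *Mylk* comes next, at 2.26 to 2.96, and *Csrp2* and *Myh10* lie farthest to the left, at -2.64 to -2.04.

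Markers of other cell types that could carry such genes were read in the same libraries. The summed level of 5 basal or myoepithelial markers was 0.651 to 1.16 CPM in mock, 0.187 to 0.524 CPM in EPR and 1.38 to 3.22 CPM in EPRSTOPE libraries, and 3 of the 5 were at 0 in mock cells. *Krt14*, the only basal marker that passed the filter, did so through the EPRSTOPE libraries. It had 7, 9 and 8 counts in the mock libraries, none in the EPR libraries and 19, 22 and 12 in the EPRSTOPE libraries. Against mock it was called lower in EPR and was not called in EPRSTOPE. *Krt5* went the other way in EPR, with no count in mock, 4, 2 and 2 in EPR and 0, 2 and 0 in EPRSTOPE libraries. The 6 fibroblast markers summed to 0.738 to 2.20, 2.40 to 3.14 and 2.78 to 3.05 CPM. *Pdgfra*, the only 1 that passed the filter, did so through the overexpressing cells. It had no count in mock, 11, 11 and 13 in EPR and 6, 14 and 12 in EPRSTOPE libraries. *Thy1* went the other way, with 16, 11 and 10 counts over the mock, EPR and EPRSTOPE libraries. The 5 pericyte markers summed to 0.422 to 0.621, 0.524 to 0.654 and 1.04 to 1.495 CPM. Of these, *Pdgfrb* had 4, 1 and 19 counts over the mock, EPR and EPRSTOPE libraries, and *Cspg4* had 6, 7 and 4. The 5 striated muscle markers summed to 109.6 to 113.2 CPM in mock, 57.8 to 61.1 CPM in EPR and 83.4 to 87.0 CPM in EPRSTOPE libraries, most of it from the troponin gene *Tnnt2*, while 2 of the 5 had no count in any condition. The 5 luminal epithelial markers summed to 3691 to 4156 in mock, 9480 to 10590 in EPR and 10680 to 11020 CPM in EPRSTOPE libraries. Most of this came from *Krt8* and *Krt18*, so the sum does not show the difference in *Cdh1*. *Cdh1* went from 0.84 ± 0.46 CPM in mock to means of 556.3 CPM in EPR and 402.6 CPM in EPRSTOPE cells. *Epcam* was at 0 in mock, and its means were 3.629 CPM in EPR and 0.11 CPM, under the 3-count level, in EPRSTOPE cells. Both genes passed the filter only through overexpressing cells, so no fold is given. The part of these differences in the contractile genes was not tested.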

How the data were processed

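Total RNA of 9 NMuMG libraries was sequenced as stranded paired-end reads of 75 bases, per the labels. The authors ran Kallisto 0.43.1 on Gencode vM15 transcripts and deposited 2 columns for 131100 transcripts: estimated counts, not normalized, and TPM, which the authors scaled by length to 1000000 per library. The submitters' processing notes also name hg38, whose role is not given in the sources used here.

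Estimated counts were summed per gene symbol and rounded. The 15370 genes that reached 1 CPM in 3 or more libraries were tested with edgeR 4.0.16 in R 4.3.3 (quasi-likelihood, TMM, 1 factor, all 9 libraries, Benjamini-Hochberg adjustment), and 45412 single transcripts in the same way. The methods used limma-voom, which was an alternative with DESeq2 1.42.0, RLE normalization, other filters, TPM-scaled counts, fewer libraries, other cut-offs and summed muscle actins. The library numbers pair no samples. On simulated counts for EPR against mock (15370 genes, 200 changed by 1.5 on the log2 scale), edgeR recovered 186 with 2 false calls. The simulation gave every gene the same spread and changed a far smaller share of genes than was called here. It held no transcripts, so it says little on genes or transcripts with a larger spread. Totals were 5972457 to 11876435 counts, and intervals and the 3-count level cover counting error or library spread only.

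The 10 genes and the lists were chosen with earlier results of these data known. One gene of the smooth muscle marker list is not reported here. Named from the lists were all actins and regulators and, per list, up to 4 genes in each direction with the largest called change against mock. *Pdlim7*, *Fhl2*, *Myh11*, *Des*, *Lmod1* and the marker genes were named after their values were seen. Positions come from Gencode M21 and promoters from RefSeq, both on GRCm38.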

Additional observations from a re-analysis of the deposited data

Results flagged for a closer look

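*Cnn2* and *Fhl1* were singled out because the direct test of EPR against EPRSTOPE called them, so their changes against mock differed. *Cnn2* was higher in EPR than in EPRSTOPE by 1.13 on the log2 scale, and *Fhl1* differed by -1.47, that is, it was higher in EPRSTOPE. In both cases all 3 libraries of one population lay on one side of all 3 libraries of the other. The EPRSTOPE cells also held less of the overexpressed RNA, 3.797 to 4.74 CPM of BC030870 against 23.7 to 27.0 CPM in EPR cells, and the part of this difference in *Cnn2* and *Fhl1* was not tested. Groups of 3 libraries are too small for an outlier to be sought.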

How the results depend on the processing

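The numbers of genes called higher and lower in the 3 comparisons stayed within 1.5 times under DESeq2, limma-voom, RLE normalization, no filter, TPM-scaled counts, a fit of only the 6 libraries compared, other cut-offs and the removal of each library in turn. The exception was a stricter filter (10 counts or more in each library), which removes *Acta2* and *Tagln* and so left 1 gene called lower in EPR against mock and 2 in EPRSTOPE against mock. A cut-off of 1 on the log2 scale dropped *Tpm1* from both comparisons. With no filter, *Cnn1* was added to the genes called lower in EPRSTOPE. The signs that turned were of differences that were not called: *Cald1* in EPRSTOPE against mock went from 0.12 to -0.068 with TPM-scaled counts, and *Tpm1* in EPR against EPRSTOPE went from -0.03 to 0.003 with that stricter filter and, as each library was left out, ran from -0.061 to 0.002, the highest without EPRSTOPE library 209. The muscle actins summed gave log2 fold changes of -2.37 in EPR and -3.31 in EPRSTOPE against mock (edgeR adjusted p = 0.00017 and 3e-05). Leaving out each library in turn changed no call, and in EPRSTOPE against mock *Acta2* then ran from -4.10 (without EPRSTOPE library 211) to -3.17 and *Tagln* from -2.78 (without EPRSTOPE library 210) to -1.85. With TPM-scaled counts *Tagln* was at -3.87 in EPR and -2.78 in EPRSTOPE, in place of -3.09 and -2.20. Over all genes, TPM-scaled counts gave 922 calls in EPR against EPRSTOPE in place of 2031. Under limma-voom 3 of the transcripts were called in EPR and 2 between EPR and EPRSTOPE, in place of 1 and 1, and 2 of the paralogs in place of 1 in EPR. The cause of these shifts was not tested. Depth limits *Actg2*, *Myl9*, *Tpm2* and *Cnn1*, at 0 to 15 counts per library. No paired analysis was possible because the library numbers 203 to 211 are not shared between conditions.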
